A study of Mus musculus with 2 samples.

Results

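The 9 genes described here encode the enzymes that set the supply of deoxynucleotides, the building blocks of DNA: Rrm1, Rrm2, Rrm2b, Tyms, Dut, Dctd, Tk1, Dck and Samhd1. They were chosen by symbol for their function and matched to the deposited gene tables through their Ensembl identifiers, and all 9 were found among 43346 Ensembl gene rows. The tables come from CFU-E cells (colony-forming unit erythroid, a committed and rapidly dividing red cell progenitor) of male C57BL/6J mice aged 5 to 6 weeks, and the labels give no genetic change and no treatment. Total RNA was depleted of ribosomal RNA and 100 ng went into each ScriptSeq library, with labelled size ranges of 209 to 891 bases for replicate 1 and 186 to 747 bases for replicate 2. The 2 libraries form 1 group, so there is no comparison between groups and no p-value. Both carry 1 donor identifier and different biosample identifiers, so the spread between them may be technical, and the labels do not say how many animals went into a library.

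Replicate 1 held 62576357 expected counts and replicate 2 held 36889517. Levels are given as TPM, a transcript's count divided by its effective length and scaled to 1 fixed total in each library, each mean with its SD over n = 2. Nuclear protein-coding genes, those not on the mitochondrial chromosome, made up 12.4% of TPM in replicate 1 and 7.49% in replicate 2, so their TPM stood on a higher scale in replicate 1. The cell type was checked against marker lists, and a marker passed where neither library had it under 1 TPM. Erythroid markers passed in 15 of 15, led by Hba-a2 and Hbb-bs, with summed levels of 27560 TPM in replicate 1 and 12734 TPM in replicate 2. Granulocyte markers passed in 15 of 17 (S100a8 and S100a9 highest, summed levels of 1275 and 650 TPM) and monocyte and macrophage markers in 10 of 17 (Lyz2 and Ly6c2 highest). The other lists passed less: 5 of 13 B cell markers found (Ighm and Cd79b highest), 4 of 11 for mast cells, basophils and eosinophils (Prg2 and Mcpt8 highest, Il5ra and Cma1 at 0), and 3 of 14 for T and NK cells (Trbc2 and Cd3g highest). They also include 3 of 12 megakaryocyte markers (Itga2b and Vwf highest, Gp1bb, Treml1 and Gp6 at 0), 1 of 10 endothelial and stromal markers (Cxcl12 and Pecam1 highest, Cdh5 and Emcn at 0), and 0 of 12 stem and early progenitor markers (Erg and Gfi1 highest, Procr at 0).

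A dividing cell must double its DNA, and it makes most of the deoxynucleotides for this from ribonucleotides. Ribonucleotide reductase removes the 2′ hydroxyl group of ribonucleoside diphosphates. Its large subunit, made by Rrm1, holds the catalytic and allosteric sites, and a small subunit, made by Rrm2 in S phase or by the p53-responsive gene Rrm2b, supplies the tyrosyl radical. Thymidine nucleotides are the exception, since they are made from deoxyuridylate by thymidylate synthase (Tyms). Deoxyuridylate comes from dUTP, cleaved by dUTPase (Dut), and from dCMP, deaminated by Dctd. Salvage kinases recover free nucleosides: Tk1 phosphorylates thymidine in the cytosol of cycling cells, and Dck phosphorylates deoxycytidine and the purine deoxynucleosides. Samhd1 works in the opposite direction and hydrolyses deoxynucleoside triphosphates, most of all in cells that do not divide.

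The enzymes of deoxynucleotide supply were abundant in CFU-E RNA, except for Rrm2b and Dctd. At 1 TPM or more in both libraries stood 7 of the 9 genes, against 23.9% of 21461 nuclear protein-coding genes, and at 10 TPM or more stood 5 of the 9, against 4.79%. The median of the 9 mean levels was 17.8 TPM, and that of all nuclear protein-coding genes was 0.055 TPM. The same 7 genes were in the top 10% of nuclear protein-coding genes in both libraries. In order of mean log2 TPM the genes ran Rrm2, Tk1, Rrm1, Tyms, Dck, Dut, Samhd1, Rrm2b, Dctd. Of the 8 pairs of neighbours in this order, 6 had a log2 TPM ratio of 1 sign in both libraries and larger than its SD. The other pairs, Rrm2 with Tk1 and Rrm2b with Dctd, did not differ beyond their spread. On posterior mean TPM Rrm2b was separated from Dctd, at a log2 ratio of 1.27 ± 1.23. On counts, which take no account of length, that ratio was 2.82 ± 0.14. The order on counts was Rrm1, Rrm2, Dck, Tk1, Tyms, Samhd1, Dut, Rrm2b, Dctd. In it Rrm1 with Rrm2 and Dck with Tk1 were not separated. In bulk RNA, fewer cells of a type and less RNA per cell cannot be told apart, and this holds for every level given here.

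**Figure D1:**
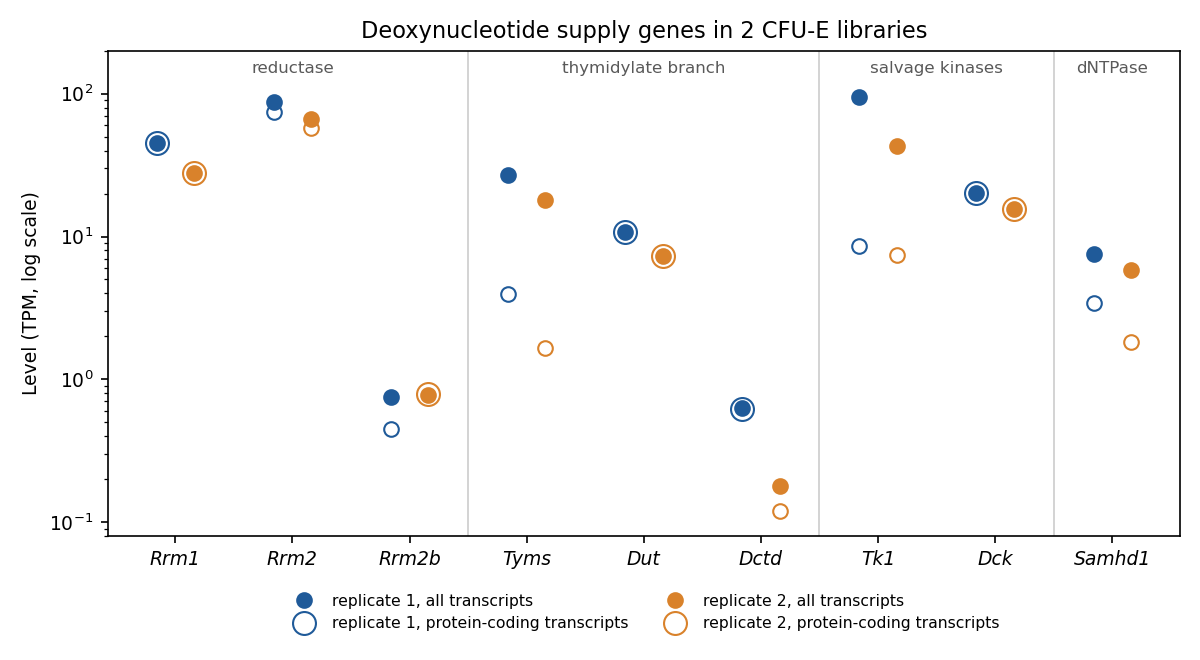
Level of each gene in TPM (log scale) in replicate 1 (blue) and replicate 2 (orange), in order of role. Filled points count all transcripts of the gene and open circles its transcripts annotated as protein-coding. Rrm2 and Tk1 stand highest and Rrm2b and Dctd lie under 1 TPM, while the open circles lie far below the filled points for Tk1 and Tyms.

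Both parts of the S phase ribonucleotide reductase were among the most abundant messages, and the alternative small subunit lay far below them. Rrm2 (ENSMUSG00000020649, chr12:24708241-24714146, plus strand of mm10) had 88.0 TPM in replicate 1 and 66.5 TPM in replicate 2, from 23169 and 16479 counts. Only 149 nuclear protein-coding genes were higher in replicate 1, and 119 in replicate 2. Its mean was 77.3 ± 15.2 TPM. Rrm1 (ENSMUSG00000030978, chr7:102441695-102469771, plus strand) had 45.5 TPM in replicate 1 and 27.9 TPM in replicate 2, from 28071 and 16088 counts, with a mean of 36.7 ± 12.4 TPM. In both libraries Rrm1 was the lower of the pair.

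Rrm2b (ENSMUSG00000022292, chr15:37923952-37961318, minus strand), whose subunit serves DNA repair and the supply of mitochondrial DNA in resting cells, had 0.75 TPM in replicate 1 and 0.78 TPM in replicate 2. These values rest on 397 and 303 counts. In replicate 1 6987 nuclear protein-coding genes stood above it, and in replicate 2 5903 did. The authors' posterior mean levels were 0.91 and 1.10 TPM, with credibility intervals of 0.754 to 1.07 TPM in replicate 1 and 0.804 to 1.44 TPM in replicate 2, whose coverage is not given in the sources used here. A processed pseudogene, Gm3362, lies within Rrm2b on the same strand and held 144 counts in replicate 1 and 0 in replicate 2. The counts of Rrm2b were whole, with a deposited posterior SD of 0 in both libraries. How reads were divided between Rrm2b and Gm3362 was not tested.

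Within each library Rrm2 stood 117-fold above Rrm2b in replicate 1 and 85.3-fold in replicate 2, a log2 ratio of 6.64 ± 0.33. Rrm2b thus made up 0.845% of small subunit TPM in replicate 1 and 1.16% in replicate 2. The ratio of Rrm1 to Rrm2 was 0.517 in replicate 1 and 0.420 in replicate 2, a log2 ratio of -1.10 ± 0.21. Formed from counts instead, which take no account of length, it was 0.28 in replicate 1 and -0.03 in replicate 2, so the sign turned in replicate 1 alone and the mean of 0.12 lay within its SD of 0.22, over a Rrm1 transcript of 3997 bases and a main Rrm2 transcript of 2193 bases. Both small subunit genes together stood 1.95-fold above Rrm1 in replicate 1 and 2.41-fold in replicate 2. These are ratios of RNA, and the active enzyme also depends on protein stability, which was not measured.

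Of the Rrm2 transcripts, Rrm2-201 (1170 coding bases) held 74.9% of gene TPM in replicate 1 and 73.9% in replicate 2. A transcript annotated as a retained intron, Rrm2-202 of 730 bases, held 15.8% and 13.2%, or 13.95 and 8.77 TPM. Of its 391 intron bases 239 are all of intron 3, 148 lie in intron 4 and the rest at the end of intron 1. The junctions of introns 3 and 4 that it crosses are shown because reads over them set this transcript apart from the spliced message. Each line gives 24 bases of mm10, read 5′ to 3′ on the plus strand, with the intron's terminal dinucleotide in capitals: intron 3 donor (chr12:24709074-24709097), intron 3 acceptor (chr12:24709313-24709336) and intron 4 donor (chr12:24709430-24709453).
Rrm2 intron 3 donor: actgccgaggagGTaatcgttcag
Rrm2 intron 3 acceptor: tctaaacttcAGgtggacctttcc
Rrm2 intron 4 donor: aatgagaacttgGTgagttggcat
All 3 carry the GT or AG of a standard splice site, and by counts Rrm2-202 took a smaller part, since protein-coding transcripts held 95.0% of Rrm2 counts in replicate 1 and 95.6% in replicate 2. Rrm1 has 1 transcript in the deposited tables, so no share can be formed for it.

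In the thymidylate branch Tyms led, Dut was lower and Dctd was the lowest. Tyms (ENSMUSG00000025747, chr5:30058202-30073617, minus strand) had 26.8 TPM in replicate 1 and 17.9 TPM in replicate 2, from 5288 and 3251 counts, with a mean of 22.4 ± 6.29 TPM. Dut (ENSMUSG00000027203, chr2:125247190-125258608, plus strand) had 10.7 TPM in replicate 1 and 7.36 TPM in replicate 2, from 1724 and 1131 counts, with a mean of 9.04 ± 2.37 TPM. In each library Dut stood below Tyms by nearly the same factor, 0.399 in replicate 1 and 0.410 in replicate 2. That order rests on transcripts not annotated as protein-coding: over protein-coding transcripts alone the ratio of Dut to Tyms was 2.73 in replicate 1 and 4.43 in replicate 2.

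Dctd (ENSMUSG00000031562, chr8:48099092-48153233, plus strand) had 60 counts in replicate 1 and 40 in replicate 2, the fewest of the 9 genes. As CPM (counts scaled to the library total) this was 0.959 in replicate 1 and 1.08 in replicate 2, nearly the same level, whereas deposited TPM was 0.63 in replicate 1 and 0.18 in replicate 2. The libraries differ in the transcript to which the counts were assigned. In replicate 1 Dctd-205 (799 bases) took 58.55 counts and Dctd-201 (2072 bases) took 0, while in replicate 2 Dctd-205 took 0 counts and Dctd-201 took 35. The effective length of the gene was therefore 586 bases in replicate 1 and 1493 in replicate 2. The 3 coding models that received counts, Dctd-201, Dctd-203 and Dctd-205, share a coding length of 552 bases.

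The transcripts of Dut are all protein-coding where they had counts. Dut-202, with 600 coding bases, held 79.8% of gene TPM in replicate 1 and 80.7% in replicate 2, and Dut-201, with 486 coding bases, held 20.2% and 19.3%. In mammals Dut makes a nuclear and a mitochondrial form of dUTPase from alternative first exons, and the deposited tables do not say which of them a transcript encodes. These shares differed by less than 1 percentage point between the libraries.

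In the deposited estimates the reads of Tyms were divided among many transcripts. The shares below are such estimates and do not measure how often each transcript is made. Protein-coding Tyms-201, of 3163 bases, held 14.7% of gene TPM in replicate 1 and 9.25% in replicate 2. Tyms-205, annotated as a target of nonsense-mediated decay (the pathway that removes messages with an early stop codon), held 49.7% and 58.3%, or 13.3 and 10.5 TPM. The retained intron transcripts Tyms-206 and Tyms-202 held 17.1% and 16.4% in replicate 1 and 14.2% and 12.2% in replicate 2. For Tyms-205 and Tyms-206 the deposited length differs from that of the later annotation used for structures, so their exons are not described. Tyms-202 ends 239 bases into intron 4, and the donor it reads through is shown for that reason, at chr5:30064073-30064096 on the minus strand of mm10, with the GT of the intron in capitals.
Tyms intron 4 donor: ggaacccaaaagGTggacagcatc
By counts the protein-coding share of Tyms was 35.8% in replicate 1 and 22.9% in replicate 2, larger than by TPM. Tyms-201 is longer than the transcripts above, and Tyms-204, a nonsense-mediated decay transcript of 3884 bases, had 0.59 TPM in replicate 1 and 1.09 TPM in replicate 2.

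Both salvage kinases stood well above their mitochondrial counterparts. Tk1 (ENSMUSG00000025574, chr11:117815526-117826092, minus strand) had 95.5 TPM in replicate 1 and 43.1 TPM in replicate 2, from 10308 and 5285 expected counts, with a mean of 69.3 ± 37.1 TPM. Of nuclear protein-coding genes 129 were higher in replicate 1 and 205 in replicate 2, so Tk1 led the 9 genes in replicate 1 and came after Rrm2 in replicate 2. Tk2, the mitochondrial thymidine kinase, had 0.20 TPM in replicate 1 and 0.19 TPM in replicate 2, from 71 and 63 counts. Tk1 was 478-fold higher than Tk2 in replicate 1 and 227-fold in replicate 2, and over protein-coding transcripts alone these ratios were 43.2 and 39.3.

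Dck (ENSMUSG00000029366, chr5:88764996-88783281, plus strand) had 20.1 TPM in replicate 1 and 15.6 TPM in replicate 2, from 9362 and 6832 counts, with a mean of 17.8 ± 3.13 TPM. Dguok, the mitochondrial deoxyguanosine kinase, had 3.08 TPM in replicate 1 and 1.88 TPM in replicate 2. Dck stood 6.51-fold above Dguok in replicate 1 and 8.31-fold in replicate 2, a log2 ratio of 2.88 ± 0.25. Dctd, which acts on the dCMP that Dck forms, was far below Dck, at a ratio of 0.0314 in replicate 1 and 0.0115 in replicate 2. Dck has 1 transcript in the tables, with 780 coding bases.

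Most of the Tk1 level came from transcripts annotated as retained introns, which held 91.0% of gene TPM in replicate 1 and 82.7% in replicate 2. The full coding transcript Tk1-201 (7 exons, 699 coding bases) had 8.63 TPM in replicate 1 and 7.46 TPM in replicate 2. These values lay closer to each other than the gene totals did, but deposited TPM stood on a higher scale in replicate 1. With TPM scaled to the same total over nuclear protein-coding genes, the gene totals were 769 in replicate 1 and 575 in replicate 2. The Tk1-201 share of gene TPM was 9.03% in replicate 1 and 17.3% in replicate 2. No conclusion on a steady Tk1-201 level is therefore drawn. Tk1-203 had 31.3 and 9.35 TPM, Tk1-206 had 24.2 and 15.0 TPM, and Tk1-207 had 21.6 and 5.30 TPM. These 3 models are short, at 724, 678 and 786 bases, and the part of each outside introns is exon sequence that Tk1-201 shares. Tk1-203 has 88 bases of intron 5, Tk1-206 has 233 bases of intron 4, and Tk1-207 has 457 bases of intron 4 at its other end. The shares are therefore estimates of how shared reads were divided and do not measure how often an intron is kept. Unspliced precursor, which total RNA contains, and a stable transcript with an intron cannot be told apart here.

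**Figure D2:**
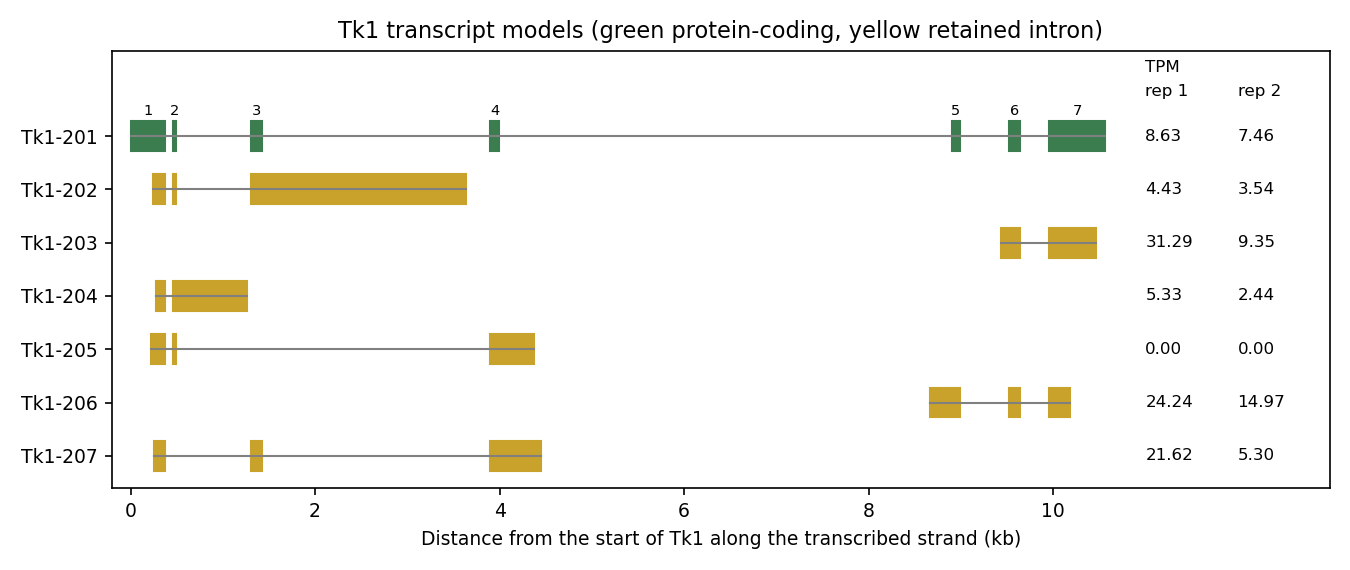
Exons (boxes) and introns (lines) of the 7 Tk1 transcript models, drawn to scale in kb from the start of the gene along the transcribed strand, with the TPM of each model in replicate 1 and replicate 2 at the right. Green marks the protein-coding model and yellow the models annotated as retained introns, and numbers are the exons of Tk1-201. The 3 models of highest TPM in replicate 1, Tk1-203, Tk1-206 and Tk1-207, are short and share exon sequence with Tk1-201.

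The junctions at which these 3 models leave the spliced Tk1 message are shown, each as 24 bases of mm10 on the minus strand with the intron's terminal dinucleotide in capitals: the intron 5 acceptor crossed by Tk1-203 (chr11:117816555-117816578), the intron 4 acceptor crossed by Tk1-206 (chr11:117817180-117817203) and the intron 4 donor crossed by Tk1-207 (chr11:117822085-117822108).
Tk1 intron 5 acceptor: tcttccgtgcAGgctttcggcagc
Tk1 intron 4 acceptor: gacttttcccAGtttcctgacatt
Tk1 intron 4 donor: gaggggcagtttGTaagtcagcct
Intron 4 is 4905 bases long, and Tk1-206 and Tk1-207 take its opposite ends. The remaining models were lower: Tk1-202 had 4.43 and 3.54 TPM, Tk1-204 had 5.33 and 2.44 TPM, and Tk1-205 was listed at 0 in both libraries. The start of Tk1 overlaps Afmid, a gene of the opposite strand with 3183 counts in replicate 1 and 1405 in replicate 2, and Tk1 lies within Gm20708 on that strand, with 121 and 358 counts. The expected counts of the other 8 genes were whole to within 0.005 in both libraries, while those of Tk1 were fractional, which arises where a read matches more than 1 gene. Those of Afmid and Gm20708 were fractional too, at 3182.56 and 121.44 in replicate 1 and 1405.39 and 357.61 in replicate 2. In each library their fractions add to a whole count with each other, without Tk1. Which gene shares reads with Tk1 was not tested. How strand was used in counting is not given in the sources used here.

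Samhd1 (ENSMUSG00000027639, chr2:157097533-157135265, minus strand), the triphosphohydrolase, had 7.58 TPM in replicate 1 and 5.87 TPM in replicate 2, from 2627 and 1635 counts, with a mean of 6.73 ± 1.21 TPM. It was below Rrm1 in both libraries, at a ratio of 0.167 in replicate 1 and 0.210 in replicate 2. Over protein-coding transcripts alone Samhd1 had 3.41 TPM in replicate 1 and 1.81 TPM in replicate 2. Samhd1 is known to be high in macrophages and other myeloid cells, and their markers were present beside it. Of 17 monocyte and macrophage markers 10 reached 1 TPM in both libraries and none was at 0 in both, with summed levels of 176 TPM in replicate 1 and 99.1 TPM in replicate 2. Their part in the Samhd1 level was not tested, nor was that of the granulocyte markers in any of the 9 levels.

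Of the Samhd1 transcripts, Samhd1-210, annotated as a retained intron and 681 bases long, held the most in both libraries, at 2.06 TPM in replicate 1 and 1.79 TPM in replicate 2. The full-length coding transcript Samhd1-201 (1974 coding bases) had 1.89 and 1.25 TPM. Samhd1-210 passes the donor of intron 15 by only 27 bases, shown for that reason at chr2:157101709-157101732 on the minus strand of mm10 with the GT of the intron in capitals.
Samhd1 intron 15 donor: accaagccacagGTgggggacgct
By counts, protein-coding transcripts held 63.4% of Samhd1 in replicate 1 and 55.7% in replicate 2, so the share was under 50% by TPM and not by counts. Other transcripts outside the protein-coding class were Samhd1-204 (nonsense-mediated decay), at 1.19 and 0.77 TPM, and Samhd1-208 (retained intron), at 0.45 and 0.78 TPM.

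Across the 9 genes, protein-coding transcripts held under 50% of gene TPM in both libraries for 3: Tk1 at 9.03% in replicate 1 and 17.3% in replicate 2, Tyms at 14.7% and 9.25%, and Samhd1 at 45.0% and 30.9%. Of the 9, only 5 have at least 2 transcripts and 1 TPM in both libraries, and these 3 are among them. Among the 3961 nuclear protein-coding genes that meet the same limits 16.6% did so, and among the 820 of these at 10 TPM or more 22.2% did. The median protein-coding share of the 3961 genes was 81.2% in replicate 1 and 77.8% in replicate 2. All such shares are estimates of how reads were divided among transcript models. Over protein-coding transcripts alone the order became Rrm2, Rrm1, Dck, Dut, Tk1, Tyms, Samhd1, Rrm2b, Dctd, and 3 genes instead of 5 stood at 10 TPM or more in both libraries. In that order Dut with Tk1 (log2 ratios of 0.31 in replicate 1 and -0.02 in replicate 2), Tyms with Samhd1 (0.20 and -0.12) and Rrm2b with Dctd (-0.46 and 2.72) had opposite signs in the libraries. Rrm2 and Rrm1 led in that order with 74.1 and 45.5 TPM in replicate 1 and 57.7 and 27.9 TPM in replicate 2.

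**Figure D3:**
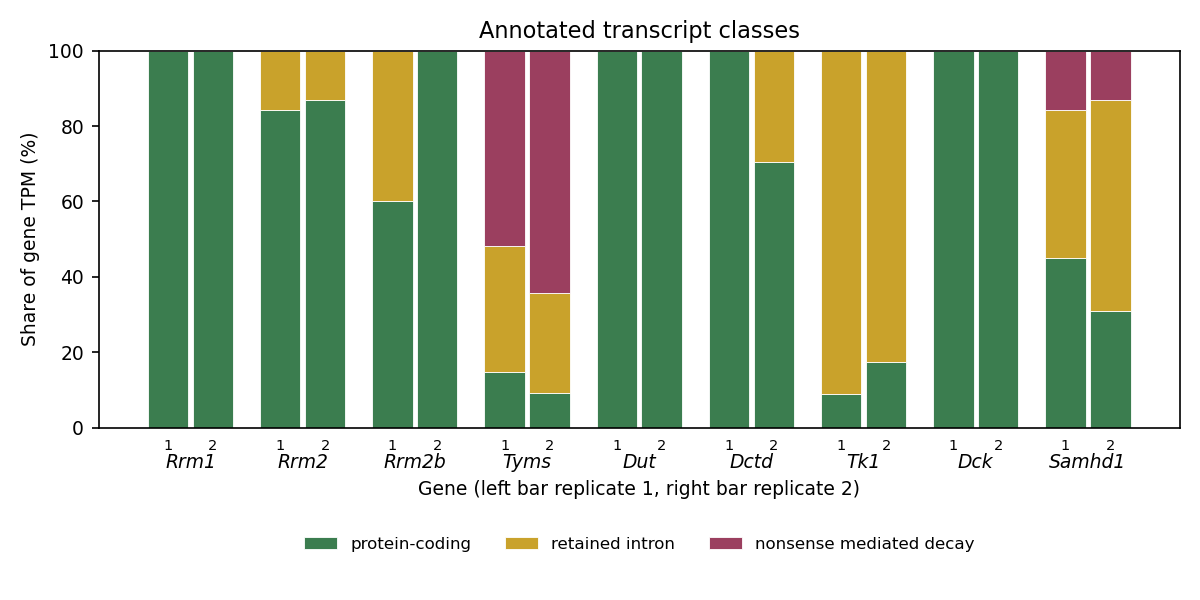
Share of each gene's TPM (%) held by transcripts annotated as protein-coding (green), retained intron (yellow) and nonsense-mediated decay (purple), with replicate 1 as the left bar and replicate 2 as the right bar of each gene. Tk1 and Tyms are mostly yellow or purple in both libraries, while Rrm1, Dut and Dck are all green.

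The class shares of Rrm2b and Dctd differed between the libraries and rest on low counts. Rrm2b had 60% of its TPM on protein-coding transcripts in replicate 1, where Rrm2b-202, a retained intron transcript, held 76 counts, and 100% in replicate 2, where that transcript had 0. Rrm2b-201, the full coding transcript, had 0.45 TPM in replicate 1 and 0.42 TPM in replicate 2. Dctd had 100% in replicate 1 and 70.6% in replicate 2, where 5 counts on Dctd-204 made up the rest.

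Between the libraries, each of the 9 genes differed by less than 2-fold once counts were scaled by TMM (trimmed mean of M values, which sets library sizes so that most genes do not differ). On that scale 0 of the 9 differed by 2-fold or more, against 21.1% of the 10403 genes whose mean count was 50 or more. The 10403 genes were not matched to the 9 in count, so no conclusion is drawn from this difference. The log2 ratio of replicate 1 over replicate 2 lay between -0.31 for Rrm2b and 0.26 for Tk1, with a median of -0.09, against 0.03 for all those genes. Rrm1 (0.10) and Tk1 were higher in replicate 1, Tyms lay at 0.00, and the other 6 were higher in replicate 2. With 1 library on each side these ratios have no error of their own and were not tested.

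On deposited TPM the picture was another one: 8 of the 9 genes were higher in replicate 1, with a median log2 ratio of 0.54. Over the 3384 nuclear protein-coding genes whose mean count was 1000 or more the median was 0.64, so abundant genes as a whole stood higher in replicate 1 on this scale. Dctd at 1.81 and Tk1 at 1.15 passed 2-fold, against 37.7% of genes on this scale. Their TMM ratios were -0.11 and 0.26, and in transcripts Dctd differed by which of them held its counts, Tk1 by the shares of the same 6. After TPM was scaled to the same total over nuclear protein-coding genes in each library, Rrm1 had 370 ± 4.78, Tyms 228 ± 16.7, Rrm2 798 ± 127 and Rrm2b 8.23 ± 3.10. Relative to the mean, the SD of Rrm1 and Tyms was smaller than on deposited TPM and that of Rrm2b larger.

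**Figure D4:**
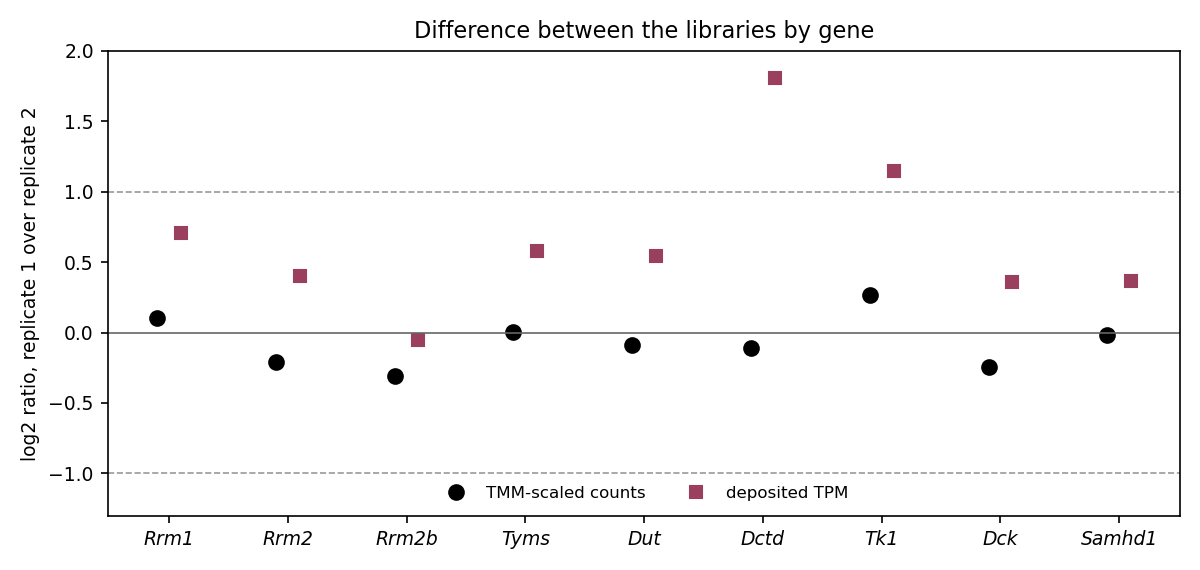
Log2 ratio of replicate 1 over replicate 2 for each gene, from TMM-scaled counts (black circles) and from deposited TPM (purple squares), with dashed lines at 2-fold. All black circles lie between -0.31 and 0.26, while 8 of 9 squares lie above 0 and those of Dctd (1.81) and Tk1 (1.15) pass the line.

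The enzymes that feed this pathway or act after it were mostly lower. In purine synthesis 8 of 13 genes reached 1 TPM in both libraries, with a median of 1.76 TPM, led by Paics (10.04 TPM in replicate 1, 10.19 TPM in replicate 2), Adss and Impdh2. In pyrimidine synthesis 3 of 6 did, with a median of 1.25 TPM: Cmpk1, a UMP and CMP kinase, and the CTP synthases Ctps and Ctps2. In the thymidylate folate cycle 4 of 8 did, with a median of 1.44 TPM, led by Mthfd1l, Mthfd2 and Mthfd1. Among nucleotide kinases 5 of 12 did, with a median of 1.84 TPM, and the highest was Dtymk, the thymidylate kinase that acts after Tyms and Tk1, at 16.46 TPM in replicate 1 and 11.02 TPM in replicate 2. Nme3, a nucleoside diphosphate kinase, and Cmpk2, a mitochondrial nucleotide kinase, followed, and Ak1 was at 0 counts in both libraries. Of these 4 lists none had a median near the 17.8 TPM of the 9 genes.

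Other salvage enzymes reached 1 TPM in 7 of 8, with a median of 2.22 TPM, led by Hprt, which recovers purine bases, at 11.5 TPM in replicate 1 and 8.22 TPM in replicate 2, then Adk and Dguok. Of 17 nucleotide breakdown genes found, 3 did, with a median of 0.25 TPM. The highest was Nt5c3, the pyrimidine nucleotidase that clears RNA breakdown products from maturing red cells, at 37.4 TPM in replicate 1 and 30.4 TPM in replicate 2, and Itpa and Nt5c came next. Tymp, Cda, Upp1 and Dpyd, which degrade pyrimidine nucleosides and bases, had 0 counts in both libraries, which allows up to 3 counts in each by counting error alone. Nt5c had 411 counts in replicate 1 and 32 in replicate 2. It passed 1 TPM in replicate 1 alone, at 4.97 TPM, against 0.76 TPM in replicate 2.

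The electron donors of ribonucleotide reductase were all present: 5 of 5 cofactor genes reached 1 TPM in both libraries, with a median of 3.98 TPM. Txn1 (thioredoxin) had 11.7 TPM in replicate 1 and 7.72 TPM in replicate 2, and Gsr (glutathione reductase) and Txnrd1 (thioredoxin reductase) followed. Among 13 regulators of the reductase genes or proteins 8 did, with a median of 4.70 TPM. The highest were the E2F factors E2f8 (37.0 and 26.5 TPM) and E2f2 (38.6 and 23.4 TPM), and Fzr1 (35.5 and 19.5 TPM), an adaptor of the ubiquitin ligase that degrades Rrm2 and Tk1 proteins on exit from mitosis. Ccnf (cyclin F), which targets Rrm2 protein in G2, had 26.5 TPM in replicate 1 and 17.1 TPM in replicate 2, and Trp53, which encodes the p53 that activates Rrm2b, had 1.62 and 0.96 TPM. Ccnf and Trp53 were named after their values were seen.

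Genes of DNA replication and mitosis were high in the same RNA. Of 20 S phase genes 19 reached 1 TPM in both libraries, with a median of 13.04 TPM, led by Pcna (75.2 TPM in replicate 1, 57.0 TPM in replicate 2), Mcm7 and Mcm6. Of 18 mitosis genes all 18 did, with a median of 44.9 TPM, led by Mki67, Top2a and Birc5. In mitochondrial DNA replication 2 of 7 did, with a median of 0.315 TPM, led by Polg, Tfam and Ssbp1. The mean levels of Rrm2 (77.3 TPM) and Tk1 (69.3 TPM) were near that of Pcna (66.1 ± 12.9 TPM), the highest of the S phase list, and those of Rrm2b and Dctd lay within the range of the mitochondrial list. Over protein-coding transcripts alone Tk1 was far below Pcna, at 8.63 TPM against 66.9 TPM in replicate 1 and 7.46 TPM against 46.7 TPM in replicate 2. These placements depend on the scale: on the scale set to nuclear protein-coding genes, all 9 supply genes, 13 of 13 purine and 6 of 6 pyrimidine synthesis genes reached 1, against 42.2% of nuclear protein-coding genes.

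**Figure D5:**
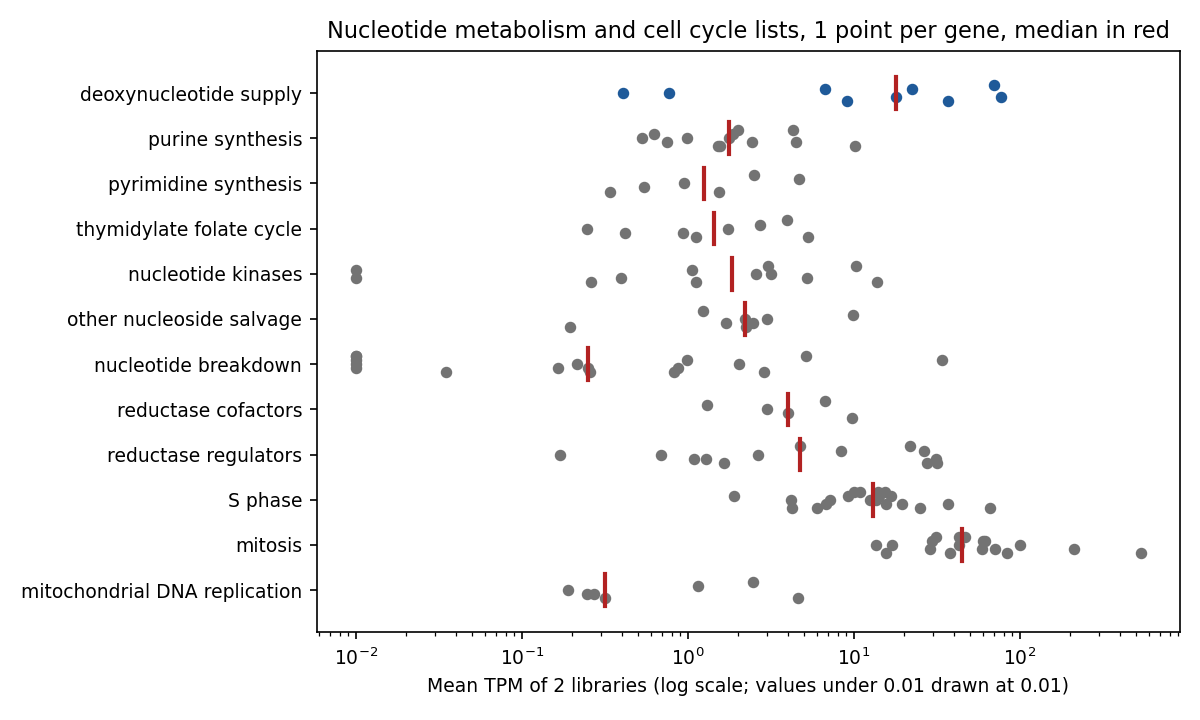
Mean TPM over the 2 libraries (log scale, values under 0.01 drawn at 0.01) of each gene in 12 lists, with the 9 supply genes in blue at the top, 1 point for each gene and the list median as a red line. The supply genes (median 17.8 TPM) lie with the S phase list (median 13.04 TPM) to the right of the purine, pyrimidine and folate lists, apart from Dctd and Rrm2b at the left.

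The promoters of these genes were searched for letters of known elements, from 250 bases before to 50 bases after the RefSeq transcription start (GRCm38.p6), where all but Rrm2b have an entry. E2F-type letters (TTNNCGC, where each N is cytosine or guanine, on either strand) were in 2 of the 8 genes. Rrm1 held TTCCCGC at position -67. Rrm2 held a match on the opposite strand, where the coding strand reads GCGGCAA at position -235. Such letters were in 10.86% of 27025 genes. CCAAT was in 3 of 8 (Rrm1, Rrm2 and Dctd), against 41.06% of genes, and TATAAA in 0 of 8, against 15.67%, both strands searched. A match is a description of the letters in this window and was not set against the measured levels.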

How the data were processed

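Gene and transcript tables of 2 libraries of total RNA were used, 1 group as the labels give it. The deposited expected counts are estimates that divide reads matching several features, and the deposited TPM, with its posterior mean and credibility interval, were made by the authors on mm10 with GENCODE M4, per the notes deposited with the tables. The sources used here name no quantifier, aligner or strand setting. The authors' deposited percent of gene TPM per transcript was recomputed from TPM. Names, biotypes and exons came from GENCODE M21, a later annotation, which named 42462 of 43346 rows, and 45 of 47 transcripts of the 9 genes had the deposited length there. Junction sequences were read from its transcripts by exon position. Promoters came from RefSeq.

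Expected counts were rounded for edgeR 4.0.16, and TMM gave effective sizes of 61216283 and 37709101, with a prior count of 0.5. Size factors from DESeq2 1.42.0 were an alternative. The versions were R 4.3.3, Python 3.11.15, numpy 2.4.6, pandas 2.3.3 and matplotlib 3.10.9. The scaling was tested on simulated data. Log2 gene ratios were formed within each library, with SD over 2. No test across groups was possible. Counting error alone allows up to 3 counts at a count of 0, and PCR duplicates are not independent molecules.

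The 9 genes, the 11 pathway lists and the 9 marker lists were chosen with earlier results of these data known. The text names all 9 genes, the 3 highest of each pathway list, both genes of each pair, and the 2 highest and the markers at 0 of each marker list. Alternatives changed the unit, pseudocount, minimum, scaling or library. Rows of spike-ins and rows named by a number were not used. A planned ratio of 1 gene pair is not reported here.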

Additional observations from a re-analysis of the deposited data

How the results depend on the processing

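Leaving aside values from a single library, 34 recomputed values kept their sign and stayed within their spread or within 1.5 times of the count, 19 moved and 3 changed sign. No paired analysis was possible because the 2 libraries are replicates of 1 group. With 2 libraries, leaving out 1 cannot move a ratio beyond its SD and tests nothing; the genes at 10 TPM or more numbered 5 without replicate 1 and 6 without replicate 2, and the order began with Rrm2 and Tk1 in replicate 2, the reverse in replicate 1. In counts with no length correction the log2 ratios were 5.82 for Rrm2 to Rrm2b, 0.12 for Rrm1 to Rrm2 (opposite sign in replicate 1 alone, within its SD), -0.83 for Tyms to Tk1, -1.57 for Dut to Tyms, 6.79 for Tk1 to Tk2, 4.33 for Dck to Dguok, -7.35 for Dctd to Dck and -3.36 for Samhd1 to Rrm1. With a pseudocount of 1 they were 5.46 for Rrm2 to Rrm2b, -1.21 for Dut to Tyms, 5.77 for Tk1 to Tk2, 2.45 for Dck to Dguok and -3.75 for Dctd to Dck. With posterior mean TPM, Rrm2 to Rrm2b was 6.25. Over protein-coding transcripts alone, an alternative chosen after seeing the data, they were -0.87 for Rrm1 to Rrm2, 1.80 for Dut to Tyms (opposite sign), 5.36 for Tk1 to Tk2, 3.30 for Dck to Dguok and -3.84 for Samhd1 to Rrm1, and 3 genes instead of 5 reached 10 TPM. On the deposited TPM ratio 2 genes instead of 0 differed by 2-fold between libraries, and the median log2 ratio was 0.54 (opposite sign). Apart from the length and transcript class that these settings change by construction, the cause was not tested. Depth limits Dctd (60 and 40 counts) and the transcript shares of Rrm2b.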
